A study of Equus caballus with 4 samples.

Results

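Calpains and their inhibitor calpastatin were described in equine satellite cells, the resident precursor cells of skeletal muscle, with and without gamma-oryzanol (GO), a mixture of plant sterol and ferulic acid esters from rice bran. The genes were CAPN1, CAPN2, CAPN3, CAPN5, CAPN6, CAPN7, CAPNS1 and CAST, and their probes were those non-control probes whose gene name in the array files equalled one of these symbols. This gave 8 of 15085 named genes and 22 of 43603 probes. The genes had been chosen from the GO over control ratios of these same arrays, so those ratios are given below as a description and no p-value is given for any of the 8 genes. Where their probes are said to be past or short of a threshold, this places them in the fit over all probes and is no independent evidence for a change.

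The cells came from horse semitendinosus muscle and were on day 3 of differentiation in medium with horse serum. They received 125 nM GO for 24 h after 48 h of differentiation. Control cells had the same medium, and both carried the vehicle DMSO at 0.04 µl/ml. Each of 4 arrays on 1 slide held cRNA of GO-treated cells in Cy5 and of control cells in Cy3, and the labels call the arrays biological replicates 1 to 4. The labels do not say whether the arrays came from separate horses or cultures, so the spread between them may be partly technical. The authors' methods state that, of the cultures from several horses, the best-scoring cell line was taken further. The spread may therefore not be one between horses. The dyes were never swapped, so dye bias and GO cannot be told apart. Defining muscle markers were above background in both channels of all 4 arrays for 7 of 7 genes on the array. The same held for 4 of 4 fibroblast markers, while 0 of 3 endothelial and 0 of 2 adipocyte markers were above background on any array. Leukocyte markers were split. Of the 4 on the array, 2 were above background in both channels of all 4 arrays, among them CD14, a marker of monocytes. The other 2, ITGAM among them, were above it on no array. In whole cultures, fewer cells of a type and less RNA per cell cannot be told apart.

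Calpains are cysteine proteases that cut their substrates at a few sites when calcium rises, rather than degrading them fully. In muscle they are known for remodelling the cytoskeleton and cell adhesions during myoblast migration and fusion, and for releasing proteins from the sarcomere. The widespread enzymes are µ-calpain, with the catalytic subunit CAPN1, and m-calpain, with CAPN2. Both pair with the small regulatory subunit CAPNS1, and both are blocked by calpastatin, the product of CAST. CAPN3 is the muscle calpain, CAPN5 and CAPN7 lack the calmodulin-like domain of the classical enzymes, and CAPN6 lacks the catalytic cysteine.

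The probes on which the pattern of the ratios rests are shown first. Each probe has 60 bases, and positions are those the array files give on EquCab1. Whether a probe lies in the coding region is not given in the sources used here. The 5 CAPN6 probes, all from transcript ENSECAT00000011583, tile chrUn:24093552-24093615 on the plus strand in steps of 1 base, so any pair of them shared 56 to 59 bases. Their last 30 bases are printed to show how little they differ, with capitals for bases beyond the 56 that all 5 share.
CAPN6 A_69_P092440: tttcaatgcttctgcaatgatgaaaaagaa
CAPN6 A_69_P092439: ttcaatgcttctgcaatgatgaaaaagaaA
CAPN6 A_69_P092438: tcaatgcttctgcaatgatgaaaaagaaAA
CAPN6 A_69_P092437: caatgcttctgcaatgatgaaaaagaaAAA
CAPN6 A_69_P092436: aatgcttctgcaatgatgaaaaagaaAAAA

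The 6 CAPN7 probes belong to transcript ENSECAT00000006254 on the minus strand and lie in 2 places. The first 4 are shifted against each other at chr16:66234302-66234364, and capitals mark bases beyond the 57 they share.
CAPN7 A_69_P109142: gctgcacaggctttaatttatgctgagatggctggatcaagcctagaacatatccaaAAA
CAPN7 A_69_P109143: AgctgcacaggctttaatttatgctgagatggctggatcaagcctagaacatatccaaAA
CAPN7 A_69_P109144: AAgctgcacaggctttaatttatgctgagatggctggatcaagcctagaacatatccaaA
CAPN7 A_69_P109145: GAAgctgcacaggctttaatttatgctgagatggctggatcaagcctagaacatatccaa

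The remaining 2 CAPN7 probes are adjacent at chr16:66200636-66200755, share no stretch with the 4 above, and are shown because their ratios ran differently across the arrays.
CAPN7 A_69_P057121: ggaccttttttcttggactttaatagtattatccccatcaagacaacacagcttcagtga
CAPN7 A_69_P057122: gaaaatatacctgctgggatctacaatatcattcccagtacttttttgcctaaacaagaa

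CAPN1 and CAPNS1 had a single probe each, and for both the span on the genome was longer than the probe, so each crosses at least 1 exon junction. CAPN1 was read at chr12:15687293-15687704 and CAPNS1 at chr10:7262847-7264496, both on the plus strand.
CAPN1 A_69_P011021: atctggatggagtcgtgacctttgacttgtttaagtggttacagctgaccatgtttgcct
CAPNS1 A_69_P045661: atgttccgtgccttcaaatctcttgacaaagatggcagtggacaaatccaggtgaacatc

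A ratio below is the log2 of the deposited GO over control ratio of a probe on an array. To be tested, a probe had to stand well above background on 4 of 4 arrays in at least 1 of the channels. Of the 22 probes, 20 did and entered the fit with 26833 probes in all. A probe was past both thresholds when its adjusted p by limma was at most 0.05 and its mean change was at least 1.3-fold. Among all tested probes 8.94% were past both, and 5.61% were past both and lower in GO. For the calpain system 3 of 20 tested probes (15%) were past both, all of them CAPN6 probes and all lower in GO. As the ratios chose the genes, nothing is read from that share. Mean ratios were below 0 for 16 of the 20 probes, against 48.9% of all tested probes, with a median of -0.30 against 0.00. Of these 20 probes, 5 for CAPN6 and 4 for CAPN7 are near copies of each other. With 1 brightest probe per gene, 3 of 6 genes were below 0 and the median was -0.03. By that probe 0 of 6 genes were past both thresholds, while 8.85% of all 9624 genes were.

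**Figure D1:**
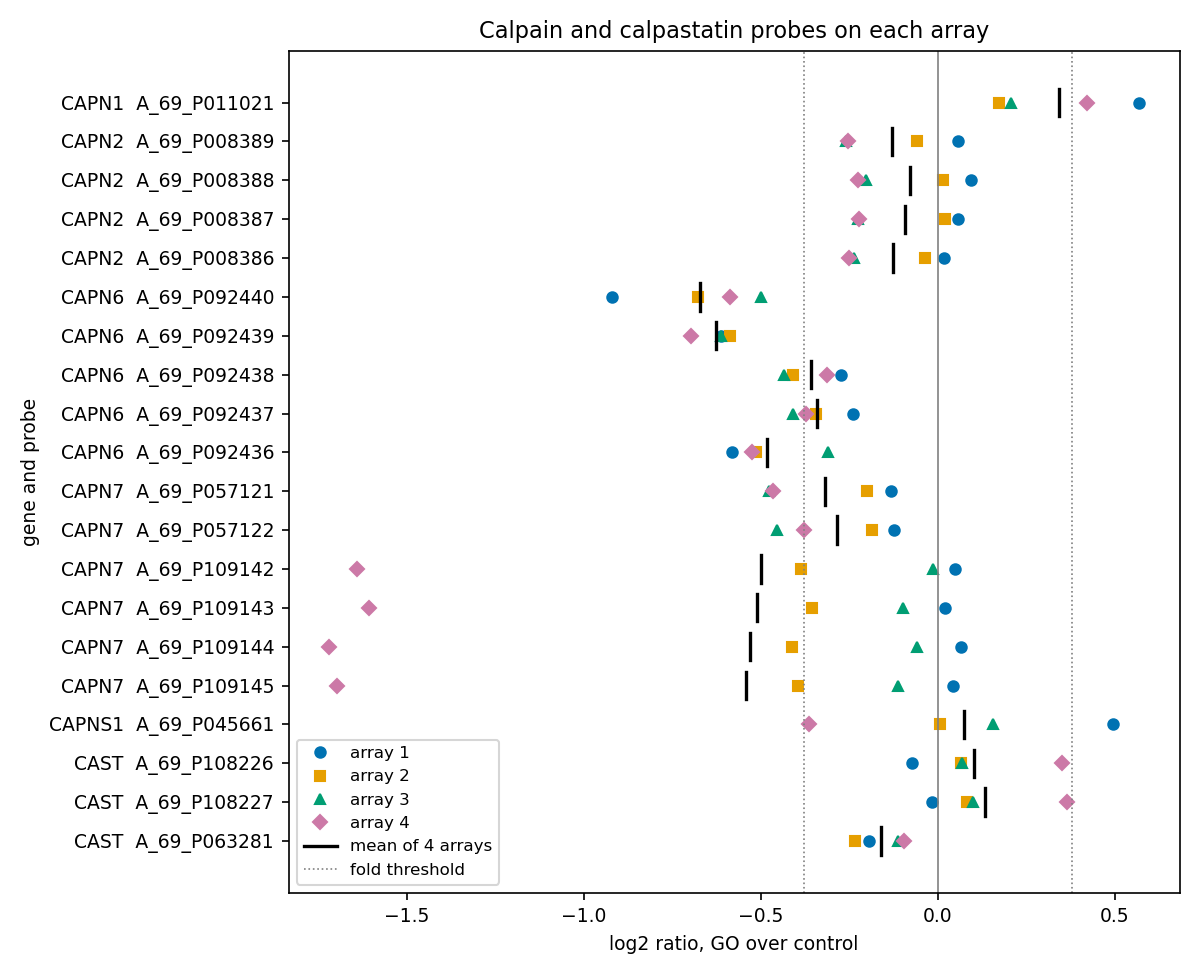
Log2 ratio of GO over control (x axis) of the 20 tested calpain and calpastatin probes (y axis), with a symbol for each of 4 arrays, a black bar at their mean and dotted lines at a 1.3-fold change. The 5 CAPN6 probes lie below 0 on every array, and 4 CAPN7 probes have 1 array, number 4, far below the others.

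The arrays did not carry the same share of lower values. On array 1, 10 of the 20 probes were below 0, and on array 2 there were 14. Arrays 3 and 4 had 16 and 17. The median over the 20 probes was 0.00 on array 1, -0.22 on array 2, -0.21 on array 3 and -0.37 on array 4, whereas the median over all tested probes lay between 0.00 and 0.01 on each array. These counts and medians weigh overlapping probes of 1 gene as if they were separate. The 4 shifted CAPN7 probes changed sign together, with A_69_P109142 at 0.05 on array 1 and -0.39 on array 2. The counts are therefore no counts of genes.

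Among the classical subunits, the CAPN1 ratio was above 0 on 4 of 4 arrays and CAPN2 was close to its control. The CAPN1 signal in control cells was 215, 339, 279 and 213 on arrays 1 to 4. In GO-treated cells it was 319, 382, 322 and 285. The groups overlapped when read across arrays, but within each array the GO channel was the brighter one. The ratios were 0.57, 0.17, 0.21 and 0.42, with a mean of 0.34 ± 0.19 (SD, n = 4), just below the fold threshold. With the arrays processed by normexp and loess instead, the mean was 0.21 ± 0.11 and array 1 had 0.20. With median-centred ratios the mean was 0.34 ± 0.18. CAPN1 stayed above 0 on 4 of 4 arrays under both.

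CAPN2 was read by 4 probes of transcript ENSECAT00000011939 at chrUn:62478127-62478501, neighbours of which shared 37 to 40 bases. Its brightest probe, A_69_P008386, gave control signals of 3224, 3026, 3711 and 3224 and GO signals of 3263, 2954, 3150 and 2707. The ratios were 0.02, -0.04, -0.24 and -0.25, with a mean of -0.13 ± 0.14 (SD, n = 4). Arrays 1 and 2 were near 0 and arrays 3 and 4 lower, and the other 3 probes ran the same way, with means from -0.13 to -0.08. No CAPN2 probe was past both thresholds.

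CAPNS1, the subunit shared by both enzymes, differed in direction between arrays. Its control signals were 5611, 7952, 4052 and 4921, and its GO signals were 7907, 7992, 4512 and 3826. The ratios were 0.49, 0.01, 0.16 and -0.36, so that arrays 1 and 4 lay on opposite sides of 0. The mean of 0.07 was smaller than the SD of 0.36 (n = 4), and 93.7% of all tested probes had a smaller SD between arrays.

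**Figure D2:**
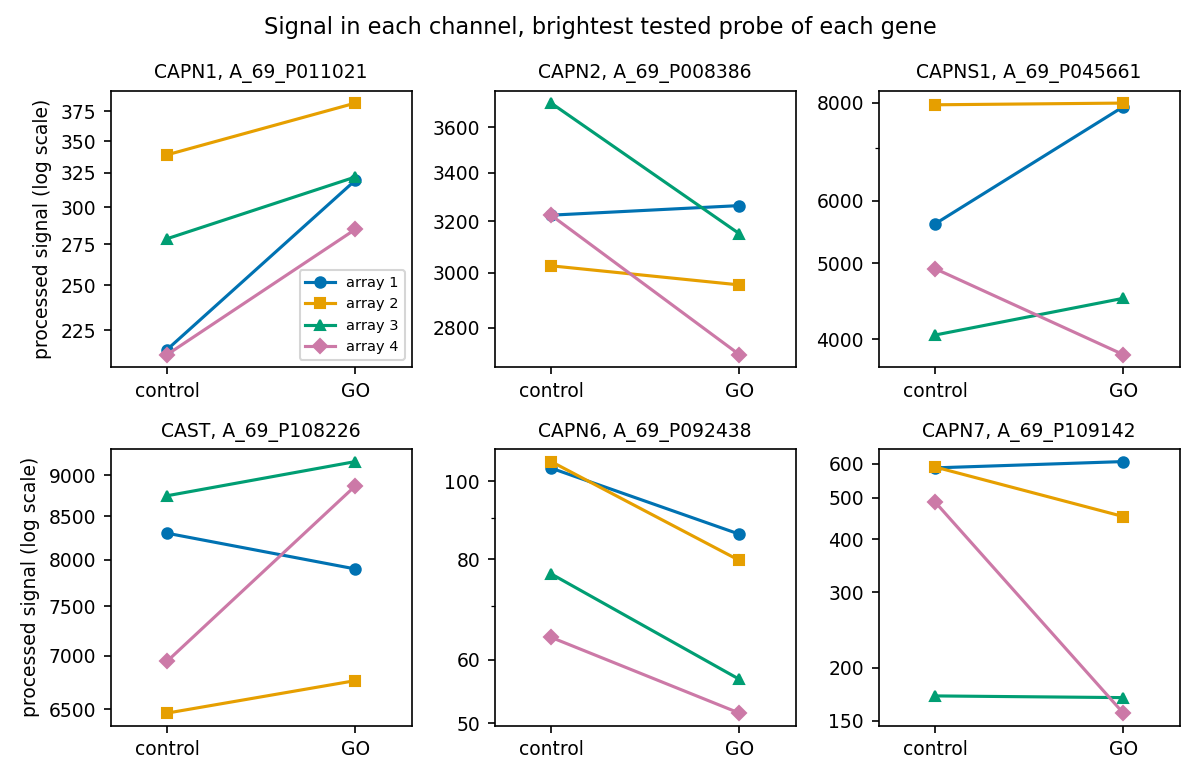
Processed signal (y axis, log scale, arbitrary units) in the control and GO channels for the brightest tested probe of each of 6 genes, with a line for each array. CAPN1 and CAPN6 lines run the same way on 4 of 4 arrays, whereas CAPNS1, CAST and CAPN7 lines cross or differ in slope; levels of different genes are not comparable.

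CAST, the inhibitor, had 3 probes that disagreed in sign. A_69_P108226 and A_69_P108227 are adjacent at chr14:71326547-71326668 on transcript JL638100. A_69_P063281 is at chr14:71336763-71338133 on ENSECAT00000015429 and crosses an exon junction. All lie on the minus strand.

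The brightest, A_69_P108226, gave control signals of 8302, 6465, 8746 and 6949 and GO signals of 7899, 6764, 9171 and 8867. Its ratios were -0.07, 0.07, 0.07 and 0.35, with a mean of 0.10 ± 0.18 (SD, n = 4), and A_69_P108227 ran alongside with a mean of 0.13 ± 0.16. Only array 4 stood clearly above 0 at these 2 probes. A_69_P063281 gave control signals of 1506, 1463, 1365 and 1342 and GO signals of 1316, 1244, 1262 and 1255. Within each array the GO channel was the dimmer one, and the ratios of -0.19, -0.23, -0.11 and -0.10 averaged -0.16 ± 0.07. None of the 3 probes was past both thresholds, so the direction for CAST depended on the probe.

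CAPN6, the calpain without a catalytic cysteine, was lower in GO-treated cells at 5 of 5 probes on 4 of 4 arrays. The lowest mean was that of A_69_P092440, with control signals of 78.1, 78.2, 60.6 and 51.0. In GO-treated cells the same probe gave 41.2, 48.9, 42.8 and 33.9, each below the control value of its own array. Its ratios were -0.92, -0.68, -0.50 and -0.59, with a mean of -0.67 ± 0.18 (SD, n = 4).

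The probe shifted by 1 base had a smaller spread, and whether the shift was the reason was not tested. A_69_P092439 had ratios of -0.61, -0.59, -0.61 and -0.70, with a mean of -0.63 ± 0.05, and 5.77% of all tested probes had a smaller SD. A_69_P092436, at the other end of the tiling, had ratios of -0.58, -0.51, -0.31 and -0.53 and a mean of -0.48 ± 0.12. These were the 3 CAPN6 probes past both thresholds.

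The 2 probes between them in the tiling had smaller ratios. A_69_P092438, the brightest, gave control signals of 104, 106, 76.7 and 63.9 and GO signals of 85.9, 79.7, 56.7 and 51.5. Its ratios were -0.27, -0.41, -0.44 and -0.31, with a mean of -0.36 ± 0.08, just short of the fold threshold. A_69_P092437 had a mean of -0.34 ± 0.07. The probes also ordered the arrays differently, since array 1 was the lowest of 4 at A_69_P092440 and the highest at A_69_P092437. The 5 probes nearly share 1 sequence and are not independent measurements.

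All CAPN6 signals were low. Over local background, control signals were 3.18-fold to 6.15-fold and GO signals 2.07-fold to 5.34-fold. The size of the ratio moved with the processing. The normexp setting added an offset of 50 to the signals, which draws the ratios of low signals towards 0. How far the offset alone moved the CAPN6 ratios was not tested. With normexp and loess the 5 means lay between -0.31 and -0.17 and no probe was past both thresholds. With median-centred ratios they lay between -0.75 and -0.40 and all 5 were. The ratio stayed below 0 at each CAPN6 probe and array under both. With normexp and loess, however, array 1 came close to 0. It had -0.08 at A_69_P092440 and -0.03 at A_69_P092437, against -0.92 and -0.24 by the deposited ratio. The plot under 3 scalings shows the means.

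**Figure D3:**
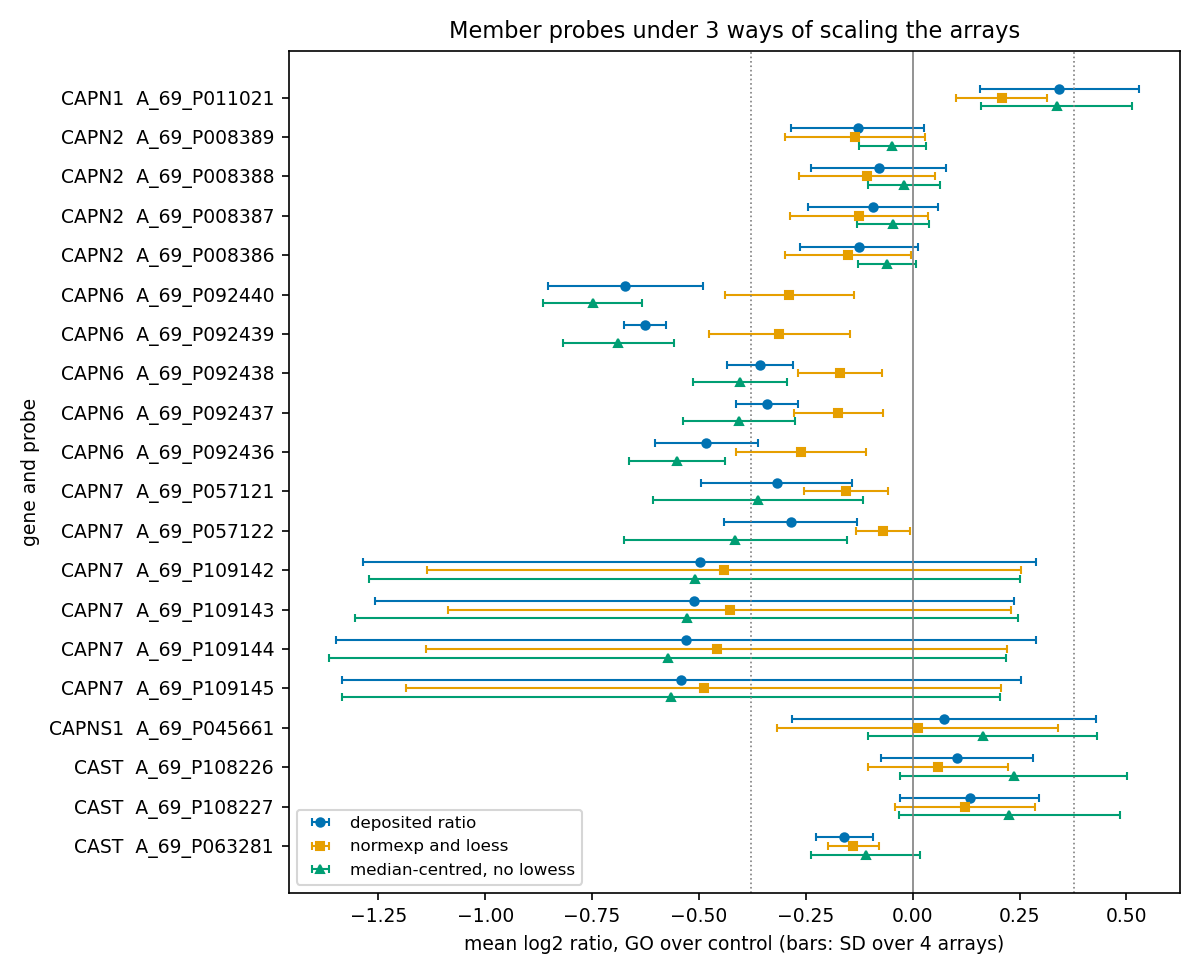
Mean log2 ratio of GO over control (x axis) with the SD over 4 arrays as bars, for each of the 20 tested probes (y axis), from the deposited ratio, from normexp with loess, and from median-centred ratios without lowess. Dotted lines mark a 1.3-fold change; CAPN6 means move between -0.75 and -0.17 and stay below 0.

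CAPN7, a calpain with an N-terminal domain for interacting with the endosomal sorting machinery, gave different patterns at its 2 places. At the 4 shifted probes a single array carried most of the change. A_69_P109142 had control signals of 587, 590, 172 and 489 and GO signals of 608, 452, 170 and 156. The control signal was low on array 3 alone, and the GO signal was low on arrays 3 and 4. The ratios were 0.05, -0.39, -0.01 and -1.64, with a mean of -0.50 ± 0.79 (SD, n = 4). Without array 4 the mean was -0.12.

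The 3 probes shifted against it gave nearly the same values, with means from -0.54 to -0.51. On array 4 the 4 probes lay between -1.72 and -1.61. Their SDs, 0.75 to 0.82, were larger than those of 99.6% to 99.7% of all tested probes, and none was past both thresholds. Since 57 bases were shared, the 4 probes repeat 1 measurement.

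**Figure D4:**
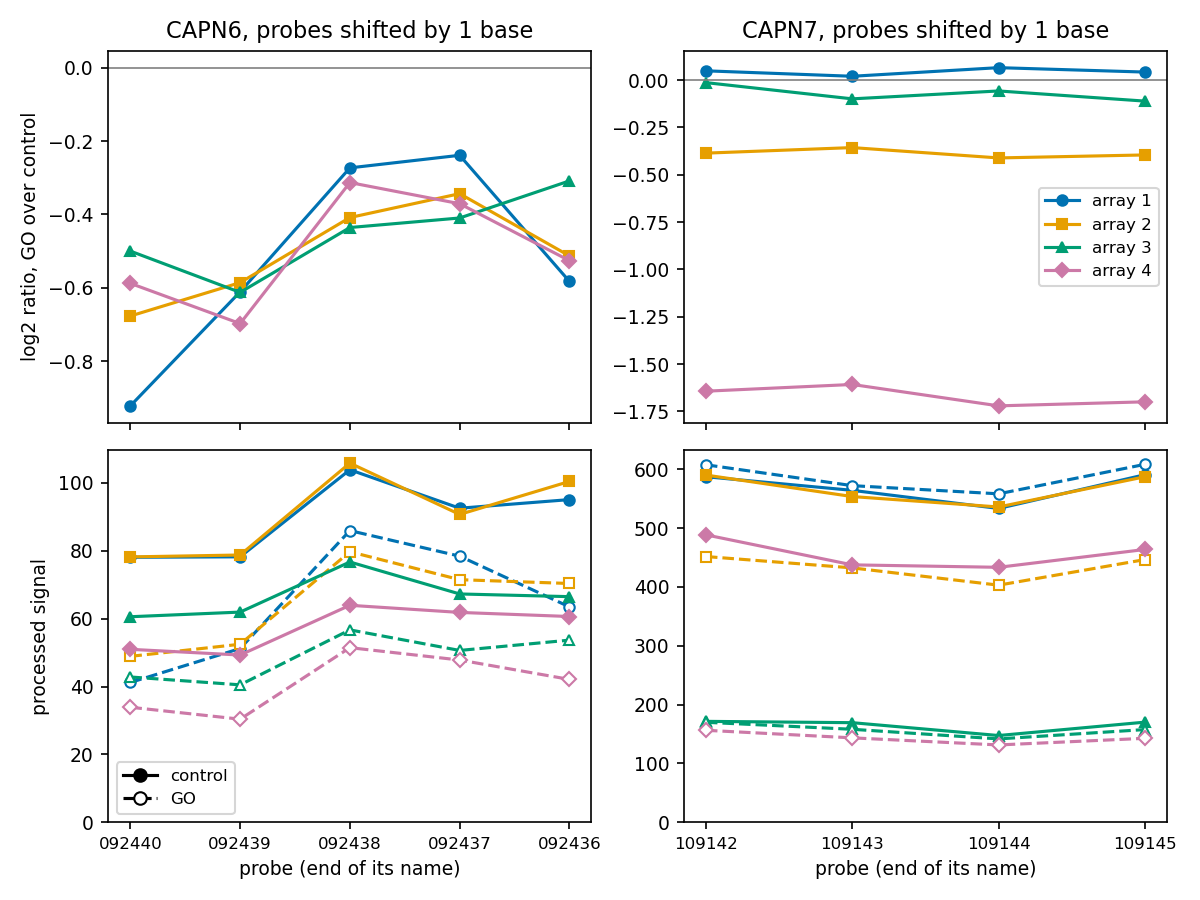
Log2 ratio of GO over control (upper panels) and processed signal in the control (filled, solid) and GO (open, dashed) channels (lower panels) for CAPN6 and CAPN7 probes shifted by 1 base, in the order of the tiling (x axis), with a colour for each array. CAPN7 probes give nearly flat lines within an array and a wide gap between arrays, whereas CAPN6 ratios change from probe to probe between -0.92 and -0.24.

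At the other place, CAPN7 ratios were lower on all 4 arrays and spread less. A_69_P057121 had control signals of 101, 87.1, 87.2 and 73.1 and GO signals of 92.6, 75.8, 62.6 and 53.0. Its ratios were -0.13, -0.20, -0.48 and -0.46, with a mean of -0.32 ± 0.18 (SD, n = 4). The adjacent A_69_P057122 had a mean of -0.29 ± 0.16 and was dimmer, above background in the GO channel on 2 of 4 arrays. Array 3 was among the lowest here and close to 0 at the 4 shifted probes. Neither probe reached the fold threshold. With normexp and loess, which used the same offset, the means shrank to -0.16 and -0.07. They were still below 0 on each array, though A_69_P057122 was at -0.01 on array 1 and -0.02 on array 2. With median-centred ratios the means were -0.36 and -0.41, where A_69_P057122 was past both thresholds.

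CAPN3 and CAPN5 could not be measured. The CAPN3 probe, A_69_P098841 at chr1:143698680-143699112 on the minus strand, was well above background on 0 of 4 arrays in either channel, with control signals from 3.84 to 14.6 and GO signals from 4.22 to 8.01. The CAPN5 probe, A_69_P071036 at chr7:55029442-55030152 on the minus strand, was likewise not well above background on any array, with signals of 2.67 to 9.44 over both channels. No fold is given for either gene.

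Further calpains and known partners were then counted, and these were tested in the fit across all probes. The lists were also chosen with earlier results of these data known. Their adjusted p-values and shares are therefore a description and no independent evidence for a change. Of 10 further calpain symbols 5 were on the array, and 3 of them, CAPN8, CAPN9 and CAPN13, did not pass the filter on dim probes. CAPN12 was read by 1 probe, which was above background in the GO channel on 3 of 4 arrays. It had a mean log2 ratio of 0.36 ± 0.12 (SD, n = 4) and was above 0 on 4 of 4 arrays (limma, adjusted p = 0.0177), below the fold threshold. With normexp and loess it had 0.13 (limma, adjusted p = 0.153), with median-centred ratios 0.25 (0.0651), and without array 3 it was past both thresholds at 0.41 (0.0368); over all alternatives the adjusted p ran from 0.0127 to 0.45. CAPN11 had -0.32 ± 0.23, below 0 on 3 of 4 arrays (limma, adjusted p = 0.0601), and 1 of its 3 probes was past both thresholds. By their brightest probe 0 of 2 tested further calpains were called, although CAPN11 was called with arrays weighted by quality, at -0.38 (limma, adjusted p = 0.0169), and without array 1, at -0.43 (0.0162), among adjusted p-values from 0.0162 to 0.564.

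Of 27 genes for calpain substrates and partners 18 were on the array, and all 18 were tested. Past both thresholds 4 of 18 fell (22.2%, against 8.85% of all genes called in either direction) and 0 rose, and the median log2 ratio of the 18 was -0.06 against 0.00 over the brightest probes of all genes. NEB, the giant ruler protein of the thin filament, fell by 0.64 ± 0.20 on the log2 scale (SD, n = 4), with ratios of -0.40, -0.59, -0.69 and -0.89 (limma, adjusted p = 0.00702). DES, the muscle intermediate filament desmin, had a mean of -0.61 ± 0.24 (limma, adjusted p = 0.0113). CDK5R1, the activator of CDK5 that calpain cleaves, had a mean of -0.60 ± 0.24 (limma, adjusted p = 0.0117). All 3 were below 0 on 4 of 4 arrays.

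SPTBN1, a spectrin of the membrane skeleton, had -0.46 ± 0.19 at its brightest probe (limma, adjusted p = 0.0167), but its 5 probes ranged from -0.46 to 0.21 and 1 of them was called. CTNNB1, the adhesion protein beta-catenin, had -0.30 ± 0.14 (limma, adjusted p = 0.0333), below the fold threshold, and 1 of its 5 probes, which ranged from -0.43 to -0.20, was called. With median-centred ratios CTNNB1 had 0.05, so no direction is given for it. The other 13 genes did not pass the adjusted p. FLNC, a filamin of the sarcomere's edge, came nearest among them at -0.44 ± 0.35 (limma, adjusted p = 0.0613), past the fold threshold, and was called in 4 of 12 alternatives, normexp and loess among them. VCL at 0.02 ± 0.07 and GSN at -0.03 ± 0.09 were close to 0. With median-centred ratios VIM, at -0.10 ± 0.11 by the deposited ratio, had 0.63, and FLNA, at 0.20 ± 0.31, had 0.39, and both then rose past both thresholds.

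Some of these calls were lost with fewer arrays. Without array 2 DES had -0.59 (limma, adjusted p = 0.0545) and SPTBN1 -0.47 (0.0687), ratios close to those over 4 arrays, and without array 3 SPTBN1 had -0.38 (0.0577). Over all alternatives the limma adjusted p or its counterpart ran from 0.00363 to 0.12 for DES, from 0.00736 to 0.115 for SPTBN1, from 0.003 to 0.123 for NEB and from 0.00504 to 0.11 for CDK5R1, and without the filter on dim probes none of the 4 was called. NEB kept its call without any single array, and so did CDK5R1, although CDK5R1 had -0.26 with normexp and loess, which ended its call. With median-centred ratios DES had -0.33, short of the fold threshold. Of the muscle markers, 5 of 7 on the array were past both thresholds and lower in GO, against 529 of all 9624 genes by their brightest probe. DES was counted here and among the substrates. The mean log2 ratios of the 7 ran from -0.93 for MYF5 to -0.30 for CKM. Whether markers and substrates moved together over the arrays was not tested. Of 4 fibroblast markers 1, PDGFRA, was past both thresholds and higher, at 0.87 ± 0.48 (SD, n = 4). COL3A1 at -0.10 ± 0.07, THY1 at 0.08 ± 0.17 and DCN at 0.04 ± 0.06 were not past both. The part of the muscle and fibroblast markers in the calpain and substrate values was not tested.

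The genes with ratios most like the extreme calpains were found by the root mean square difference over the 4 arrays among 9618 other genes. For CAPN1, the highest of the 6 genes with a tested probe by its brightest one, these were ANKRD13A at 0.05, LOC100629443 at 0.05 and C3H16ORF70 at 0.06 on the log2 scale. For CAPN7 at A_69_P109142, which had the lowest mean of the brightest probes, they were ATP2B3 at 0.10, NKD2 at 0.20 and SDHC at 0.21. Array 4 was the lowest at all 3 of the latter, with ratios of -1.57, -1.31 and -1.35. This follows from choosing them by likeness to a CAPN7 probe that was far below 0 there. The points are 4 arrays of 1 slide and carry no test.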

How the data were processed

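Gene expression was measured in 4 two-colour Agilent horse arrays. The authors scanned and processed them with Feature Extraction, whose version is 10.10.1.1 in the headers, whereas their methods name another. The intensity values they deposited are background-subtracted and processed signals, the latter after detrending and linear and lowess dye normalization, and the deposited log10 ratios are those of processed Cy5 over Cy3 signal. The series table of the authors held the same ratios, with 180880 of 180880 values exactly equal as numbers.

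The deposited log10 ratios were converted to log2. After removal of 1417 control spots and of 10 to 19 outlier spots per array, repeated spots of a probe were averaged; 26833 of 43603 probes passed the filter on dim probes. Between 63.5% and 68.9% of probes in the control channel and 57.4% and 67.0% in the GO channel were well above background, and no spot was saturated. The number of arrays limits the precision. The mean ratio was tested against 0 with limma 3.58.1 (R 4.3.3; Benjamini-Hochberg over all tested probes), after the scripts were tested on simulated data. At an adjusted p of at most 0.05 alone 4859 probes passed. A gene with several probes was represented by its brightest. Figures were drawn with matplotlib 3.10.9.

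Both channels of an array were kept as a pair, since they share the array: deviations from the channel means correlated at 0.48 to 0.86 within an array and at -0.54 to 0.24 between arrays. The means were each probe's own over the arrays, so the deviations of a probe cancel out. That lowers the correlations between arrays by construction, and the contrast is partly fixed in advance. All members were named, of the further genes those past both thresholds and all tested calpains, and 3 nearest genes for the members with the lowest and highest brightest probe; CTNNB1, FLNC, FLNA, VCL, GSN, VIM and the markers were named after their values were seen. The members and lists were chosen with earlier results of these data known. Promoter and protein sequences were not used here. Part of the leukocyte marker list is not reported here.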

Additional observations from a re-analysis of the deposited data

Results flagged for a closer look

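In a screen of 60 values of the calpain and calpastatin probes (log2 ratio, control signal and GO signal of 20 probes), 2 had 1 array far from the other 3. Both were control signals of CAPN7, at A_69_P109142 and A_69_P109144, and in both array 3 was the low one, with 172 and 148 against 433 to 590 on the other arrays. The gap to the nearest array took up 0.847 and 0.835 of the whole range on the log2 scale. Chance flags about 1 in 20 values in such a screen, and the 2 probes share nearly all their bases.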

How the results depend on the processing

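Over all tested probes 2399 were past both thresholds (1505 lower in GO), against 3 probes of the 8 genes and 4 genes among the further calpains, substrates and partners. With normexp (offset 50) and loess these counts were 1297, 0 and 4 (FLNC in place of CDK5R1). Median-centring without lowess gave 3390 (1650 lower), 6 and 6, so that the split of lower against higher calls moved, and it shifted the median of all probes to 0.03. Without the filter on dim probes they were 908, 2 and 0, and with a one-sample test on each probe alone 147, 1 and 0. Without the replicate block, with channels as unpaired samples, they were 370, 0 and 0. With Aquantile scaling of that unpaired fit they were 922, 1 and 1; this scaling was added after the unscaled count and an earlier count for these data had been seen. A filter on both channels and array weights moved no count by over 1.5 times. Leaving out 1 array at a time gave 1566 to 2430 probes, 3 to 5 calpain probes and 2 to 6 further genes; the 1566 came without array 2 and the 5 without array 1. Of 60 recomputed log2 ratios of the brightest probes, 58 moved by less than the SD between arrays. The other 2 were CAPN6, at -0.17 with normexp and loess and -0.50 as the mean of its probes. Many of the 60 could not have moved that far. Leaving out 1 of 4 arrays shifts a mean by less than its SD, and the unpaired fits keep the same mean. Without array 4 CAPN7 had -0.12 against -0.50 and still counts among the 58, because its SD was 0.79. The 58 are therefore no measure of stability. Over all 20 probes, 6 moved by their SD or more with normexp and loess (5 CAPN6 and 1 CAPN7) and 1 CAPN6 probe with median-centring. Low signal over background limits CAPN6 and the dimmer CAPN7 probes, and CAPN3 and CAPN5 were not well above background.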
